A study of Mus musculus with 6 samples.

Results

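The genes described here encode the ATF4-CHOP stress regulators and their effectors: the transcription factors Atf4, Ddit3, Atf3 and Atf5, the inhibitor Trib3, the effectors Chac1 and Stc2, and the growth regulators Sesn2, Ddit4 and Eif4ebp1. These 10 genes were chosen by their levels in the comparison described below, with earlier results of the same table in view, so their values are a description and no test was made on them. A locus of the deposited table was taken as a gene's own where the stretch they share made up 0.5 or more of all bases that either covers. This gave 8 genes their own locus, out of 32357 loci in the table, and left Ddit3 and Atf5 without one. The overlap of the members just inside this limit was 0.832 for Stc2 and 0.938 for Eif4ebp1, and just outside it was 0.262 for Ddit3 and 0.120 for Atf5.

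The RNA came from primary cultures of cerebral cortex of Balb/c mice, dissected from E14.5 embryos and grown with serum for 4 days in vitro according to the labels (the methods of the study give 1 day more). Cells of the Neurod2 knockdown group received a plasmid for shNeurod2-1 (2 libraries) or shNeurod2-2 (2 libraries), and control cells received a plasmid for a non-silencing shRNA (2 libraries). All 3 plasmids were delivered by nucleofection at plating in the same GFP-bearing backbone, so that control cells carried a hairpin plasmid too, and no genotype other than the strain is given. The table holds 1 pooled FPKM value (fragments per kilobase of transcript, scaled to library size) for the 4 knockdown libraries and 1 for the 2 non-silencing libraries. The spread between libraries, the read depth and the effect of each hairpin alone are therefore not known here, no SD or p-value stands beside a value, and every ratio is a comparison of these pooled values only. The targeted gene Neurod2, a neuronal basic helix-loop-helix factor, had 60.3 FPKM in knockdown and 104.8 FPKM in non-silencing cultures, 1.74-fold lower.

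ATF4 is the main transcription factor of the integrated stress response. When kinases such as PERK or GCN2 phosphorylate the translation factor eIF2, most protein synthesis slows while the Atf4 mRNA is translated better, and ATF4 protein then pairs with C/EBP-type factors on C/EBP-ATF response elements in genes for amino acid supply, redox balance and growth control. Prolonged signalling induces CHOP, the product of Ddit3, and TRIB3, which feeds back on both factors. RNA sequencing reads mRNA levels alone, and in cultures of mixed cells fewer cells of a type and less RNA per cell cannot be told apart.

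The response element TGATGNAA was searched in the RefSeq promoters of the members, in windows of 250 bases before to 50 bases after each start site on GRCm38.p6, because ATF4 and its C/EBP-type partners bind target genes through it. A promoter was at hand for 9 of the 10 genes, Eif4ebp1 being without. A match on either strand was present in 3 of these 9 genes, Chac1, Atf3 and Trib3, against 3.97% of all 32851 promoters of the same length. The first count is of genes, which have 10 promoters in all, and the second is of promoters. Known ATF4 targets are among the members by choice, so nothing is read from this difference. The 3 windows are printed 5′ to 3′ on the strand of the gene, with the match in capitals. It lies on the opposite strand in each and so reads as its reverse complement.
Chac1 (chr2:119350992-119351291, plus strand): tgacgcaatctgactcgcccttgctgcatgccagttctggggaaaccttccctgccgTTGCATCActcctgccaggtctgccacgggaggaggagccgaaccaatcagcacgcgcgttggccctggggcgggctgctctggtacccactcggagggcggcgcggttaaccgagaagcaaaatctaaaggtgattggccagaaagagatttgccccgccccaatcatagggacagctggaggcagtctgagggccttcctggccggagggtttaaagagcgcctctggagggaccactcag
Atf3 (chr1:191183284-191183583, minus strand): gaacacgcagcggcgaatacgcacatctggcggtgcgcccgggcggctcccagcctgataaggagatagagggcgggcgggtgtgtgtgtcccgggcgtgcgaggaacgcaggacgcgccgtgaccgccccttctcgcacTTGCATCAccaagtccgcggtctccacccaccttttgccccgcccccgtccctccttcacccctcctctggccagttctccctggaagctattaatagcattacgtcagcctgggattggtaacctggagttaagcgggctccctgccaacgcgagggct
Trib3 (chr2:152344011-152344310, minus strand): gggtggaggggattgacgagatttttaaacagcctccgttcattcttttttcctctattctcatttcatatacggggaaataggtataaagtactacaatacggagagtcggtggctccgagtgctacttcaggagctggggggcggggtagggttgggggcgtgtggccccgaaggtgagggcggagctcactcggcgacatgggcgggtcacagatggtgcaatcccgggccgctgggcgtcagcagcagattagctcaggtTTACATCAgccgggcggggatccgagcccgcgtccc
The capitals read TTGCATCA in Chac1 and Atf3, beginning at position -193 and -110 from the start site, and TTACATCA in Trib3, beginning at position 15, where the first transcribed base is 1. The Chac1 and Atf3 matches also have the stricter form TGATGCAA, which is contained in TGATGNAA and occurs in 0.895% of all promoters. The cyclic AMP response element TGACGTCA was in 1.79% of all promoters and in 0 of the 9 members with a promoter. Only this exact form was searched, so near forms such as ttacgtca in the Atf3 window were not counted. The Atf3 window belongs to a start site inside the longer annotated span of the gene. A match describes letters in a window and is not a measured binding site.

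All 8 members with their own locus had a lower pooled FPKM in Neurod2 knockdown than in non-silencing cultures, by between 1.29-fold for Atf4 and 2.05-fold for Eif4ebp1. Their median log2 ratio, knockdown over non-silencing with 0.1 FPKM added to each value, was -0.80, beside -0.03 over the 12808 loci whose mean FPKM reached 1. Lower by over 1.5-fold were 7 of the 8 members, beside 2.41% of these loci, and higher by over 1.5-fold were 0 members, beside 2.31%. Under 80% of the non-silencing value with 0.1 FPKM added to each, the looser limit used here, were 8 of the 8, beside 5.69%. Since the members were selected on this contrast, nothing is read from these shares. The members passing the limit of 1 FPKM were 7, and Atf3 lay under it.

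**Figure D1:**
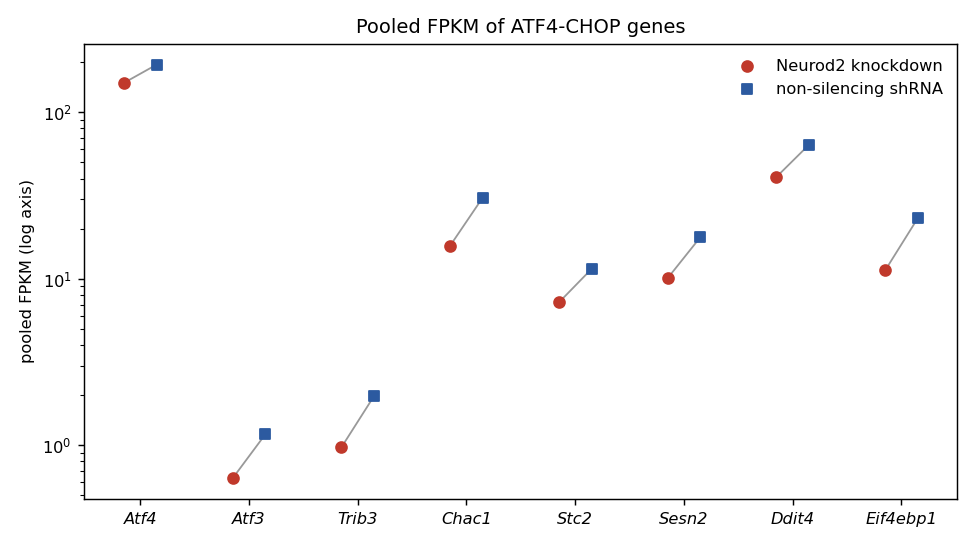
Pooled FPKM of the 8 ATF4-CHOP genes with their own locus, on a log axis, in Neurod2 knockdown (red circles, pooled over 4 libraries) and non-silencing cultures (blue squares, pooled over 2 libraries); no error bar can be drawn from pooled values. Each red circle lies below its blue square, from 150.3 against 193.3 FPKM for Atf4 to 0.633 against 1.16 FPKM for Atf3.

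Among the transcription factors, Atf4 itself had the highest level of all members and the ratio nearest to 0. Atf4 (chr15:80255184-80257541, plus strand, GRCm38, 3 exons) had 150.3 FPKM in knockdown and 193.3 FPKM in non-silencing cultures, a log2 ratio of -0.36. This is a difference of -43.0 FPKM, the largest of the 8 members in FPKM, although it was the smallest as a ratio. Among the 739 loci within 2-fold of its mean level, 11.5% had a ratio at or below that of Atf4. Atf3 (chr1:191170296-191218039, minus strand, 4 exons), a stress-induced factor that acts largely as a repressor, had the lowest level of the 8 members. It had 0.633 FPKM in knockdown and 1.16 FPKM in non-silencing cultures, 1.72-fold lower with 0.1 FPKM added to each value. Of 943 loci of like level, 2.12% had a ratio at or below its own. A small noncoding RNA gene, Gm24748, is annotated on the other strand inside the span of Atf3, and whether counting used strand is not given in the sources read here.

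The remaining bZIP members could not be given a value of their own. Ddit3, which encodes CHOP, lies at chr10:127290774-127296288, where the assembled transcripts reach into the neighbouring gene Mars, which encodes methionyl-tRNA synthetase and runs on the opposite strand. The table has 2 loci with the same span of 20994 bp over both genes. One of these loci had 17.6 FPKM in knockdown and 33.7 FPKM in non-silencing cultures, a log2 ratio of -0.93. The other had 42.4 FPKM in knockdown and 54.3 FPKM in non-silencing cultures, a log2 ratio of -0.36. Which of them carries CHOP is not given, and the ATF4 target Mars is the other candidate. Loci carry running numbers, XLOC_002572 for the locus at -0.93 and XLOC_003337 for that at -0.36. The member Ddit4, on the minus strand nearer the start of this chromosome, has XLOC_002832. If numbers run along the plus strand and then the minus strand, the locus at -0.93 lies on the plus strand, as Ddit3 does. The numbering rule is not given, so no value was assigned. Atf5, an ATF4-related factor linked to the mitochondrial stress response, shares a span of 36824 bp on chromosome 7 with Akt1s1, Il4i1, Nup62 and Tbc1d17. The 3 loci at that position had log2 ratios of -0.66, -0.27 and -0.23, with 20.3, 33.7 and 12.0 FPKM in knockdown against 32.2, 40.8 and 14.2 FPKM in non-silencing cultures. All 5 loci at the positions of Ddit3 and Atf5 were lower in knockdown, beside 58% of all loci below 0. These loci lie on spans shared with the other genes named here. No value was assigned to Ddit3 or Atf5, and no direction is read for either gene.

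Trib3 encodes a pseudokinase that binds ATF4 and CHOP and restrains their activity. Trib3 (chr2:152337422-152344032, minus strand, 4 exons) had 0.971 FPKM in knockdown and 1.97 FPKM in non-silencing cultures. With 0.1 FPKM added to each value, Trib3 was 1.94-fold lower, a log2 ratio of -0.95. Its level was low in both groups, and 0.804% of 1865 loci of like level had a ratio at or below its own. The match of the response element in Trib3 is the one that begins after the start site in the windows printed above.

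The effector Chac1 encodes an enzyme that breaks down glutathione and is switched on by ATF4 and CHOP. Chac1 (chr2:119351229-119354381, plus strand, 3 exons) had 15.8 FPKM in knockdown and 30.8 FPKM in non-silencing cultures, 1.94-fold lower with a log2 ratio of -0.96. Chac1 and Trib3 had nearly the same ratio with 0.1 FPKM added, but -0.92 for Chac1 and -0.59 for Trib3 with 1 FPKM added. Of 4859 loci within 2-fold of its level, 1.21% had a ratio at or below that of Chac1. Stc2 encodes stanniocalcin 2, a secreted glycoprotein that is induced by stress of the endoplasmic reticulum. Stc2 (chr11:31357307-31370074, minus strand, 4 exons) had 7.21 FPKM in knockdown and 11.4 FPKM in non-silencing cultures, a log2 ratio of -0.66. It was 1.58-fold lower, just past the limit of 1.5-fold.

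The growth regulators restrain TORC1 or translation, and each had a lower pooled FPKM in knockdown. Sesn2 encodes Sestrin 2, a leucine sensor that inhibits TORC1 through the GATOR complexes. Sesn2 (chr4:132492032-132510501, minus strand, 10 exons) had 10.1 FPKM in knockdown and 17.7 FPKM in non-silencing cultures, 1.75-fold lower. The noncoding gene Gm12981 is annotated on the same strand within this locus, so that the value may hold its reads too. Ddit4 encodes REDD1, which inhibits TORC1 through the TSC complex. Ddit4 (chr10:59949669-59951834, minus strand, 3 exons) had 40.9 FPKM in knockdown and 63.9 FPKM in non-silencing cultures, 1.56-fold lower, with a difference of -23.0 FPKM. Eif4ebp1 encodes the eIF4E-binding protein 4E-BP1, which blocks cap-dependent translation until TORC1 phosphorylates it. Eif4ebp1 (chr8:27260329-27276674, plus strand, 3 exons) had 11.2 FPKM in knockdown and 23.1 FPKM in non-silencing cultures. Its log2 ratio of -1.04 was the lowest of the 8, and 0.781% of 5248 loci of like level had a ratio at or below its own.

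**Figure D2:**
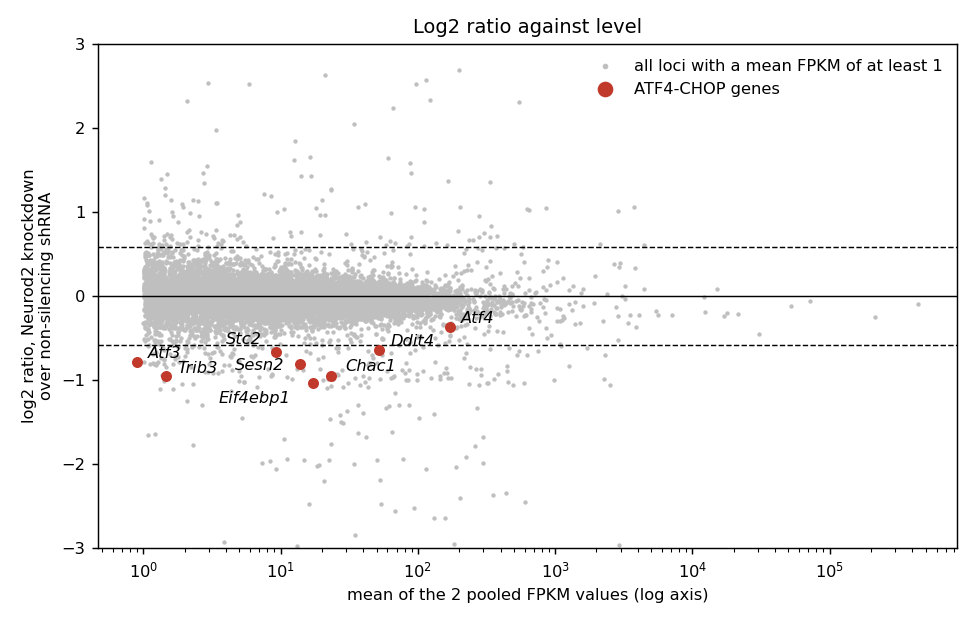
Log2 ratio of pooled FPKM, Neurod2 knockdown over non-silencing, against the mean of both values on a log axis, for loci whose mean FPKM reached 1 (grey) and the 8 ATF4-CHOP genes (red); dashed lines mark 1.5-fold and 203 grey loci beyond 3 on the log2 scale are not drawn. Of the members, Atf4 alone lies above the lower dashed line, and Atf3, which is drawn although its mean is under 1 FPKM, is at the left edge.

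The order of the members by FPKM, a value per transcript length, was the same in both groups: Atf4 was highest, followed by Ddit4, Chac1, Eif4ebp1, Sesn2, Stc2, Trib3 and Atf3. In non-silencing cultures the level of Atf4 was 166.4-fold that of Atf3. Which neighbours in this order differ beyond the spread of libraries cannot be said from pooled values. Summed over the 8 genes, the FPKM was 237.1 in knockdown and 343.4 in non-silencing cultures. In the middle 95% of the 12808 loci, log2 ratios ran from -0.57 to 0.54, and 58% of the loci were below 0. The position of the members outside this range, all but Atf4, is what they were selected on.

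The size of the ratios depended on how low values and the scale of the columns were treated, while their sign did not. With 1 FPKM added in place of 0.1, the log2 ratio was -0.40 for Atf3 and -0.59 for Trib3, the members with the lowest levels, and 6 of 8 members were lower by over 1.5-fold. With both columns scaled to the same sum, ratios of the members were higher by 0.10 to 0.12 on the log2 scale and 5 of 8 members were past this fold. Stc2 at -0.54 and Ddit4 at -0.52 were then within it. That scaling rests on few loci, since the 10 loci with the highest non-silencing FPKM held 61.9% of the knockdown sum and 63.2% of the non-silencing sum. All 8 members were below 0 under each of the pseudocounts and scalings tried.

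**Figure D3:**
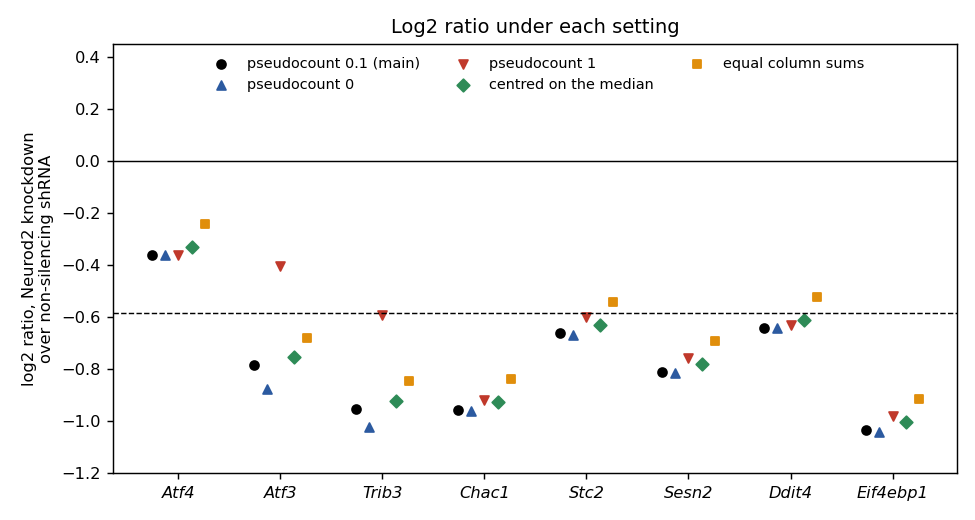
Log2 ratio of each member, Neurod2 knockdown over non-silencing, under pseudocounts of 0.1, 0 and 1 FPKM, after centring on the median of all loci, and after scaling both columns to equal sums; the dashed line marks 1.5-fold lower. All points lie below 0, and the lowest-expressed genes Atf3 and Trib3 shift most with a pseudocount of 1.

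Known ATF4 targets outside the members were counted from a list of 39 genes, 25 of which had a usable locus with a mean of at least 1 FPKM. Lower by over 1.5-fold were 4 of these 25 (beside 2.41% of all loci), and higher by this fold were 0 (beside 2.31%). With 0.1 FPKM added to each value, 11 of 25 were under 80% of the non-silencing value (beside 5.69%). Their median log2 ratio was -0.31, beside -0.80 for the members and -0.03 for all loci, and 23 of 25 were below 0, beside 58% of all loci. With equal column sums, 23 of 25 were below 0 too, and 2 of 25 were lower by over 1.5-fold, beside 1.99% of all loci. The median was then -0.19, beside 0.09 for all loci. The list was written with earlier results in view and some of its genes had been noted in this table before, so these counts are no independent evidence. The mitochondrial enzyme gene Pck2, which makes phosphoenolpyruvate, had 4.32 FPKM in knockdown and 9.23 FPKM in non-silencing cultures. The cationic amino acid transporter Slc7a3 had 15.1 FPKM in knockdown and 31.8 FPKM in non-silencing cultures. The large neutral amino acid transporter Slc7a5 had 49.0 FPKM in knockdown and 78.7 FPKM in non-silencing cultures. Asparagine synthetase, Asns, a widely used readout of ATF4, had 86.2 FPKM in knockdown and 131.6 FPKM in non-silencing cultures, 1.53-fold lower. Within the list, the 8 aminoacyl-tRNA synthetase genes, which load amino acids onto tRNA, had log2 ratios from -0.40 for Aars to 0.06 for Wars, and Wars and the cysteine-synthesis gene Cth (0.24) were the only ones of the 25 above 0. Aars, Wars and Cth are named here after their values were seen.

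The eIF2 kinases, the eIF2 and eIF2B subunits and the eIF2 phosphatase, which act upstream of ATF4, had 0 of 15 usable genes past 1.5-fold in either direction. Over all loci 2.41% were lower and 2.31% higher by this fold, so 0 genes in so short a list is near that share. The median log2 ratio was -0.07 (0.05 with equal column sums). The PERK gene Eif2ak3 had the lowest ratio of this list, with 12.5 FPKM in knockdown and 17.7 FPKM in non-silencing cultures. The PKR gene Eif2ak2 had 30.2 FPKM in knockdown and 34.9 FPKM in non-silencing cultures, with a log2 ratio of -0.21 beside -0.23 for the phosphatase subunit Ppp1cc and -0.19 for Eif2b4. The GCN2 gene Eif2ak4, outside the rule for named genes, had 4.86 FPKM in knockdown and 4.43 FPKM in non-silencing cultures. Phosphorylation of eIF2 was not measured, so these levels do not show its state.

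The ATF6 and IRE1-XBP1 arms of the unfolded protein response had 0 of 15 usable genes past 1.5-fold, beside 2.41% of all loci lower and 2.31% higher. The median was -0.03, the same as all loci to 2 decimals, and 0.09 for both with equal column sums. Summed FPKM of these 15 genes was 799 in knockdown and 805 in non-silencing cultures. Herpud1, a membrane protein of endoplasmic reticulum degradation that ATF4 can also induce, was the lowest, with 30.8 FPKM in knockdown and 44.6 FPKM in non-silencing cultures. Xbp1 had a log2 ratio of -0.23 and its activator Ern1 of -0.22, while the chaperone Dnajb9, an XBP1 target, stood at 0.22.

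Of bZIP factors that are partners of the members or related to them, 2 of 16 usable genes were lower by over 1.5-fold, beside 2.41% of all loci. Fos, an immediate early AP-1 factor, had 2.40 FPKM in knockdown and 4.62 FPKM in non-silencing cultures. The AP-1 repressor Jdp2, related to Atf3, had 5.73 FPKM in knockdown and 8.88 FPKM in non-silencing cultures. Jun had a log2 ratio of -0.45 and Batf3, a factor of immune cells, of 0.55 at 2.05 FPKM in knockdown against 1.37 FPKM in non-silencing cultures. The median of the list was -0.06 (0.06 with equal column sums).

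Paralogs of the members gave 1 of 6 usable genes lower by over 1.5-fold, Jdp2, beside 2.41% of all loci, and a median of -0.01 (0.11 with equal column sums). The second eIF4E-binding protein, Eif4ebp2, had 8.25 FPKM in knockdown and 10.2 FPKM in non-silencing cultures, a log2 ratio of -0.30 beside -1.04 for Eif4ebp1. Stc1, the paralog of Stc2, had 4.18 FPKM in knockdown and 3.76 FPKM in non-silencing cultures, a log2 ratio of 0.15 beside -0.66 for Stc2. The p53-induced Sesn1 had 18.9 FPKM in knockdown and 17.8 FPKM in non-silencing cultures, beside a log2 ratio of -0.81 for Sesn2. Each of these differences between paralogs is between pooled values and has no test.

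The TORC1 and cap-binding partners of Sesn2, Ddit4 and Eif4ebp1 had 0 of 16 usable genes past 1.5-fold, beside 2.41% of all loci lower and 2.31% higher. The median was -0.02 (0.10 with equal column sums). The largest ratio was that of Akt1s1, the TORC1 component PRAS40, with 305.7 FPKM in knockdown and 231.6 FPKM in non-silencing cultures, a log2 ratio of 0.40. Akt1s1 begins under the span that the Atf5 loci share, so its own value may be divided between loci. The GATOR2 subunit Sec13 and the GATOR1 subunit Nprl2 had ratios of -0.21 and -0.20, and the Rag GTPase Rraga of -0.16.

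The genes linked to CHOP and apoptosis had 0 of 8 usable genes past 1.5-fold, beside 2.41% of all loci lower and 2.31% higher. The median was 0.04. The BH3-only gene Bbc3, which CHOP and p53 can induce, had 14.4 FPKM in knockdown and 20.4 FPKM in non-silencing cultures. The related Pmaip1 had 1.78 FPKM in knockdown and 1.33 FPKM in non-silencing cultures, and Bax and Bcl2l11 had log2 ratios of -0.18 and 0.08.

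Several members also respond to p53, hypoxia or glucocorticoids, so lists for these were counted. The p53 targets had 0 of 10 genes past 1.5-fold, beside 2.41% of all loci lower and 2.31% higher. The median of the p53 targets was 0.04, with Bbc3 at -0.50, the death receptor Eda2r at 0.49, Ccng1 at 0.25 and Phlda3 at -0.24 on the log2 scale. The hypoxia targets had 1 of 9 genes lower by over 1.5-fold and all 9 below 0, beside 2.41% and 58% of all loci. Their median was -0.16 as deposited. With equal column sums it was -0.04, and 6 of 9 were below 0. The gene past this fold was the angiogenic factor Vegfa, which ATF4 can also induce, 1.53-fold lower in knockdown. The collagen-modifying enzyme P4ha1 stood at -0.30, lactate dehydrogenase Ldha at -0.24 and the glucose transporter Slc2a1 at -0.22. The glucocorticoid targets had 0 of 6 genes past 1.5-fold, beside 2.41% of all loci lower and 2.31% higher. Their median was -0.01 (0.11 with equal column sums), with Per1 at -0.43, Sgk1 at 0.22, the metallothionein Mt1 at -0.21 and Mt2 at 0.14.

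**Figure D4:**
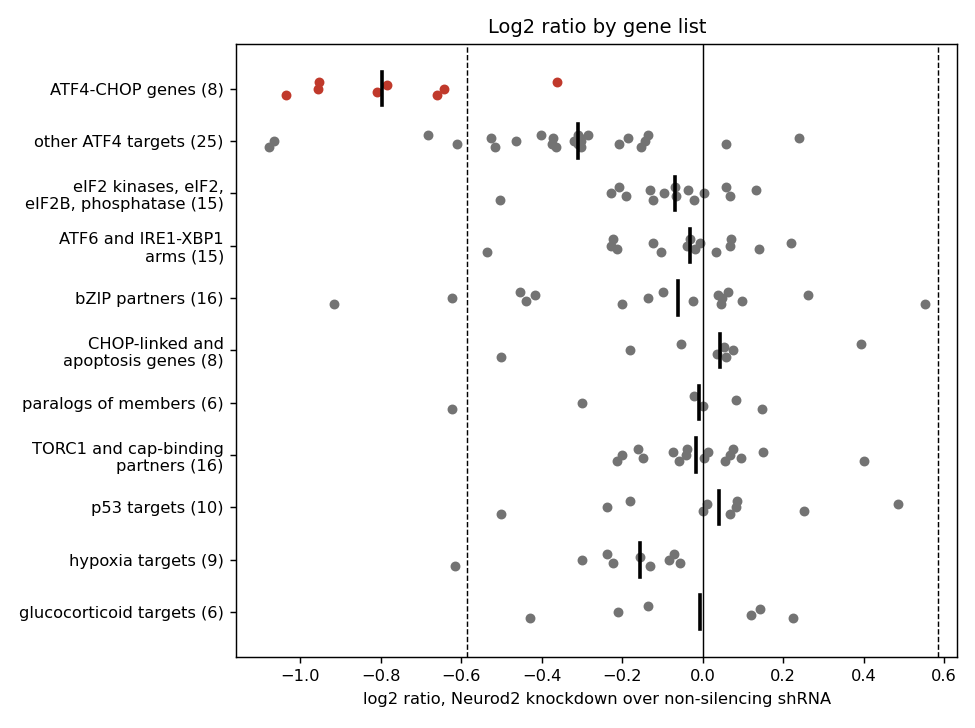
Log2 ratio of pooled FPKM, Neurod2 knockdown over non-silencing, for each usable gene (points) of the ATF4-CHOP genes and 10 other gene lists, with the number of genes in brackets; black bars are medians and dashed lines mark 1.5-fold. The median was -0.80 for the ATF4-CHOP genes and -0.31 for other ATF4 targets, and between -0.16 and 0.04 for the remaining lists.

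Markers of the cells in the cultures were read beside these values. The 9 neuronal markers summed to 2278 FPKM in knockdown and 2144 FPKM in non-silencing cultures, with log2 ratios from -0.09 to 0.20. Those of astrocytes and radial glia, with 4 of 7 genes found, summed to 1429 FPKM in knockdown and 1272 FPKM in non-silencing cultures. Fabp7 alone made up most of this sum, with 1227 FPKM in knockdown and 1057 FPKM in non-silencing cultures. Of the 4 genes, Gfap alone was lower by over 1.5-fold, with 35.1 FPKM in knockdown and 57.4 FPKM in non-silencing cultures. The 5 markers of the oligodendrocyte lineage were all below 0, beside 58% of all loci, with a median of -0.33 beside -0.03 over all loci. Their log2 ratios ran from -0.47 for Sox10 to -0.002 for Olig2. With equal column sums, 3 of 5 were below 0 and the median was -0.21. These markers summed to 100.9 FPKM in knockdown and 108.3 FPKM in non-silencing cultures. Progenitor markers, with 5 of 7 found, summed to 185 FPKM in knockdown and 195.3 FPKM in non-silencing cultures. The interneuron markers found, 2 of 6, summed to 7.60 FPKM in knockdown and 3.96 FPKM in non-silencing cultures. Most of this was Sst, with 6.55 FPKM in knockdown and 3.29 FPKM in non-silencing cultures. All 7 fibroblast and mural markers were found, 3 of them at a mean of 1 FPKM or more, and summed to 9.90 FPKM in knockdown and 7.85 FPKM in non-silencing cultures. Among those under this level, the collagen genes Col1a1 and Col3a1 had 0.975 and 0.765 FPKM in knockdown, against 0.125 and 0.171 FPKM in non-silencing cultures. The 5 endothelial markers, with Cldn5 at 0 in non-silencing cultures, summed to 0.345 FPKM in knockdown and 0.184 FPKM in non-silencing cultures. Microglial markers, with 3 of 5 found, C1qb at 0 in both groups and C1qa at 0 in non-silencing cultures, summed to 0.199 FPKM in knockdown and 0.0847 FPKM in non-silencing cultures. The part of any of these cell types in the lower levels of the ATF4-CHOP genes was not tested.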

How the data were processed

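RNA of 6 libraries from nucleofected mouse cortical cultures was sequenced as 50 bp single-end reads. Of the sources used here, the study's methods and the submitters' processing notes name TopHat, Cufflinks, Cuffdiff and mm10, and their versions, annotation and strand setting are not given. The authors deposited 1 table with 1 pooled FPKM value per group and locus, and 0 columns of single libraries. Its columns of the authors' own comparison hold a log2 fold change, a test statistic, p and q, and none is reported or compared here. The labels do not say whether libraries came from separate cultures.

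A spreadsheet had turned many FPKM cells into times. For these, the possible numbers were listed and the pair was kept whose ratio gave the deposited log2 fold change to its 6 digits, which is the sole use of that column. This turned back 4933 loci, 5 of them members (Trib3, Chac1, Stc2, Sesn2 and Eif4ebp1), and left 97 open, and 13 loci marked as failed or holding too much data were left out. The relation held in 13441 of 13441 unaltered loci with both values above 0. On simulated data, 99.9% of 2985 pairs came out right and 0 wrong. These pairs were altered by the same rule that the decoding undoes, and levels as low as those of Trib3 were not simulated.

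Loci were named by overlap of at least 0.5 of the union with genes of GENCODE M21 (GRCm38). Log2 ratios and folds between groups are of FPKM plus a pseudocount of 0.1, which understates the change of low genes. All counts over loci used the 12808 with a mean FPKM of at least 1. With 1 value per group no test was run. Members and lists were chosen with earlier results of these data known. Beside the members and Neurod2, up to 4 genes a list were named, those with the largest absolute log2 ratio at a mean of 1 FPKM or more. Aars, Wars, Cth, Eif2ak4 and the markers given by value were named outside this rule. Genes with more than 1 locus, or a locus shared with another coding gene, were not used. Other pseudocounts, scalings, filters, overlaps and folds were tried. Promoters are from RefSeq. Python 3.11.15, numpy 2.4.6 and matplotlib 3.10.9 were used.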

Additional observations from a re-analysis of the deposited data

How the results depend on the processing

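In all, 80 values were recomputed under other settings for the members, the share of all loci and the ATF4 targets. Moved means past 0.1 on the log2 scale, or past 1.5-fold for a count or share. So counted, 64 stayed close to the reported ones and 16 moved, and 0 log2 ratios changed sign. The 64 include values that could hardly move: the overlap limit of 0.8 kept every member, and centring shifts a ratio by 0.03 only. They also include the count of members past 1.5-fold, 7 as reported and 5 with equal sums. Outside the 80 values, the medians of 6 other lists (eIF2, ATF6 and IRE1-XBP1, bZIP, paralogs, TORC1 and glucocorticoid) turned from below to above 0 with equal sums. The median log2 ratio of the members, -0.80 as reported, was -0.62 with a pseudocount of 1 FPKM and -0.69 with both columns scaled to equal sums. For the ATF4 targets outside the members, equal sums gave 2 genes lower by over 1.5-fold and a median of -0.19. The looser limit of 80% of the non-silencing value, with 0.1 FPKM added to each, gave 11 genes beside 5.69% of all loci. Equal sums also moved the median of all loci to 0.09 and the share of lower among the loci past 1.5-fold to 40.1%, against 51.1% as deposited (255 lower and 381 higher, against 309 lower and 296 higher). Centred on the median of all loci as deposited, the members had a median of -0.77. Over the remaining settings the share of all loci lower by over 1.5-fold ran from 1.67% to 2.83%. Pooled values allow no library to be left out, and the read depth is unknown, so the precision of low levels such as those of Atf3 and Trib3 is not known. No paired analysis was possible because the columns are pooled over libraries and carry no replicate number.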
